A study of Mus musculus with 2 samples.

Results

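The genes of the Wnt system that act at and outside the cell membrane were examined in gastric organoids from young and aged mice. They are the Wnt ligands, the enzymes that prepare them for secretion, the receptors and co-receptors, the R-spondins and the secreted antagonists. Genes were chosen by name from the probe sets that carry exactly 1 gene symbol, which gave 57 genes of the 19505 measured, each with 1 probe set. *Rnf43* and *Ctnnb1* were not analysed here, since neither has a probe set of its own name alone.

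RNA came from organoids, which are epithelial cultures grown in a gel from stomach cells, of C57BL/6 mice defined as young (2 to 4 months of age) or aged (more than 18 months). Each group was hybridized to 1 Clariom S mouse array, and whether a culture came from 1 animal is not given in the sources used here. Both cultures were kept in a medium that supplies the pathway from outside, with Afamin/Wnt3a CM, R-Spondin1 conditioned medium and Chir99021, an inhibitor of the kinase GSK3. EGF, Noggin, FGF10, valproic acid, Y-27632 and SB431542 were also present in the medium of both groups. Without replicates no difference was tested, and age cannot be told apart from any other difference between these 2 cultures.

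Wnt proteins are secreted lipid-modified ligands. In the canonical branch they bring a Frizzled receptor together with the co-receptors Lrp5 or Lrp6, which halts the breakdown of β-catenin and lets it drive transcription with TCF factors. R-spondins act through Lgr receptors to keep the ubiquitin ligases Znrf3 and Rnf43 from removing Frizzled from the membrane, and antagonists such as the Dickkopf and Sfrp proteins block either the co-receptor or the ligand. In the stomach this pathway maintains gland stem cells, and much of the supply of ligands, R-spondins and antagonists comes from the stroma.

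Signals are on the log2 scale of the deposited values, and all differences are aged minus young on that scale. Genes for odor and pheromone receptors (olfactory and vomeronasal, 1399 in number), whose RNA is not looked for in a stomach, set a background reference. It is their 95th percentile on each array, 5.36 (young) and 5.54 (aged). The differences of these genes between the arrays had an SD of 0.50, which is the only measure of error at hand and holds for dim genes. No fold is given where both signals fall under the reference, and where 1 does, the fold is a bound taken against the reference. Levels of different genes were not set against each other, since each is read by its own probes.

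Both cultures carried the RNA of an epithelium. All 12 epithelial markers were above the reference on both arrays, with *Epcam* (3.64-fold), *Ehf* (2.57-fold) and *Cldn7* (2.25-fold) higher and *Cldn4* (2.56-fold) lower in the aged culture, while 0 of 8 leukocyte, 0 of 8 endothelial and 0 of 8 smooth muscle markers were above it on either. Of 20 fibroblast and mesenchymal markers 5 were above it on at least 1 array, none of them 2-fold apart, and of these the fibronectin gene *Fn1* (12.16 young, 11.39 aged) is also made by epithelia. Of 6 neural and glial markers 2 were above it, *Tubb3*, a tubulin gene of neurons, at 6.84 (young) and 5.64 (aged), 2.30-fold lower, and *Elavl4*, above it on the aged array alone (4.80 and 5.57). The gastric makeup of the cultures differed. Of 14 gastric epithelial markers, 11 were above the reference, 6 of them lower by 2-fold or more in the aged culture (the chief cell genes *Pgc* and *Cblif*, *Gkn3* and *Gata6* among them) and 2 higher by as much (*Tff2* and *Sox2*). *Tff1*, 1 of the 6, was under the reference on the aged array, and its bound of 1.24-fold does not reach 2-fold. The share apart was 72.7%, beside 23.2% of all genes above the reference, and was not tested. The part of these differences in the Wnt results was not tested, and in such whole-culture RNA fewer cells of a type and less RNA per cell cannot be told apart.

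Most receptor genes of the pathway were above background, and most ligand and antagonist genes were not. Of the 57 genes, 25 (43.9%) were above the reference on at least 1 array (24 in the young culture, 21 in the aged), against 59.3% of all genes. All 10 Frizzled genes were among them, as were both LRP co-receptor genes, but only 4 of 19 Wnt genes and 0 of 4 R-spondins. Of 12 genes counted as secreted antagonists 2 were among them, *Notum* and the Dickkopf-like gene *Dkkl1*, counted there by its name. Higher by 2-fold or more in the aged culture were 2 of the 25 genes, *Wnt4* and *Dkkl1*, where the share over all 11571 genes above the reference was 11.3%. The measured signals put 5 genes 2-fold or more lower (*Fzd1*, *Fzd5*, *Fzd7*, *Ror2* and *Wnt10a*), where the share over all genes was 11.8%. *Ror2* and *Wnt10a* passed the reference on the young array alone, where they are high, and their bounds of 1.62-fold and 1.06-fold do not reach 2-fold. Counted by bounds, 3 genes were lower (*Fzd1*, *Fzd5* and *Fzd7*), where 10.2% of all genes above the reference were. The share of the 25 genes apart in either direction was 28.0% by measured signals, beside 23.2% of all genes, and 20% by bounds, beside 20.8%. Both shares are near those of all genes. The median difference of the 25 genes was −0.13, beside 0.0021 over all genes above the reference.

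**Figure D1:**
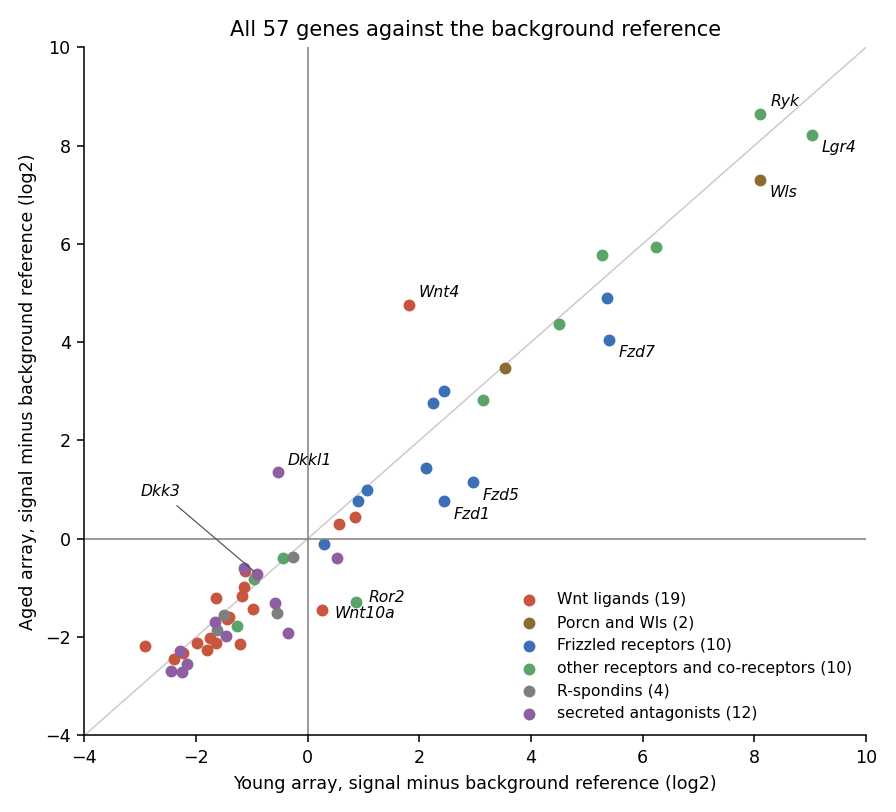
Signal minus the background reference of the same array (log2), young array on the horizontal and aged array on the vertical axis, for all 57 genes (1 point per gene, colored by family; 1 array per group). The grey lines mark the reference and equality of the arrays. The 32 genes under the reference on both arrays fill the lower left corner and are mostly ligands and antagonists, whereas *Wnt4* and *Dkkl1* lie furthest above the diagonal.

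Among the ligands, *Wnt4* was higher in the aged organoids and the other genes were dim. *Wnt4* encodes a ligand known for turning mesenchyme into epithelium in the kidney and for its part in the female reproductive tract, and it signals with or without β-catenin depending on the cell. Its signal was 7.17 (young) and 10.30 (aged), above the reference in both, a difference of 3.13 (8.74-fold). This lay at percentile 98.9 of the differences of all genes above the reference, and it was the largest difference of the 25 genes in either direction.

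*Wnt10a*, a ligand of ectodermal appendages such as teeth and hair, was at 5.62 (young) and 4.09 (aged). The young value lies just above the reference, and the aged value is under it, so the bound is at least 1.06-fold lower, which is little more than equality. *Wnt5a*, a ligand of the β-catenin-independent branch that acts in tissue elongation, was at 6.20 and 5.99, and *Wnt9b*, which acts in kidney development, at 5.91 and 5.85. Both differences were smaller than the spread of the background genes.

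The other 15 Wnt genes were under the reference on both arrays, with signals of 2.44 to 4.37 in the young culture and 3.09 to 4.88 in the aged. They are *Wnt1*, *Wnt2*, *Wnt2b*, *Wnt3*, *Wnt3a*, *Wnt5b*, *Wnt6*, *Wnt7a*, *Wnt7b*, *Wnt8a*, *Wnt8b*, *Wnt9a*, *Wnt10b*, *Wnt11* and *Wnt16*. *Wnt3a*, whose protein was supplied in the medium, was at 3.11 and 3.21, so its RNA was not above background in either culture. *Wnt3*, the ligand that Paneth cells give to intestinal stem cells, was at 2.44 and 3.35, the widest gap of the 15 (0.90) but well under the reference on both arrays.

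The machinery that makes Wnt proteins ready for release was above the reference in both cultures. *Porcn*, whose enzyme attaches the lipid, was at 8.89 and 9.01, a difference of 0.11. *Wls*, whose product carries the lipid-bearing ligand to the membrane, was at 13.46 and 12.84, a difference of −0.62 (1.54-fold lower).

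The Frizzled receptors split in direction. These proteins span the membrane and bind the ligand with a cysteine-rich outer domain. Of the 10 genes, 3 were lower by 2-fold or more in the aged culture, 0 were higher by as much and 7 were within 2-fold. Over all genes above the reference, 11.8% were lower and 11.3% higher by as much. The share apart was 30%, beside 23.2% of all genes, and was not tested. The median difference was −0.24, beside 0.0021 over all genes above the reference. *Fzd5*, needed for Paneth cell maturation in the gut, was at 8.31 (young) and 6.68 (aged), a difference of −1.63 (3.09-fold lower).

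*Fzd1* was at 7.80 (young) and 6.30 (aged), a difference of −1.49 (2.81-fold lower). *Fzd7*, a Frizzled that serves renewal of the intestinal and gastric epithelium, was at 10.76 and 9.58, a difference of −1.17 (2.26-fold lower). All 3 lower receptors remained above the reference on the aged array. *Fzd1*, *Fzd2* and *Fzd7* form a subfamily by sequence, and *Fzd2* ran the other way, at 7.60 and 8.30 (0.70, or 1.63-fold higher).

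*Fzd4*, which also serves as the receptor for the non-Wnt ligand Norrin, was at 7.79 and 8.55 (0.76, or 1.69-fold higher). The subfamily of *Fzd3* and *Fzd6*, known for planar cell polarity, differed little, with *Fzd3* at 7.47 and 6.99 and *Fzd6* at 10.72 and 10.44. *Fzd8*, the closest relative of *Fzd5*, did not share its difference, at 6.26 and 6.31. *Fzd10* was at 6.42 and 6.53. *Fzd9* was near the reference on both arrays, at 5.65 and 5.43.

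**Figure D2:**
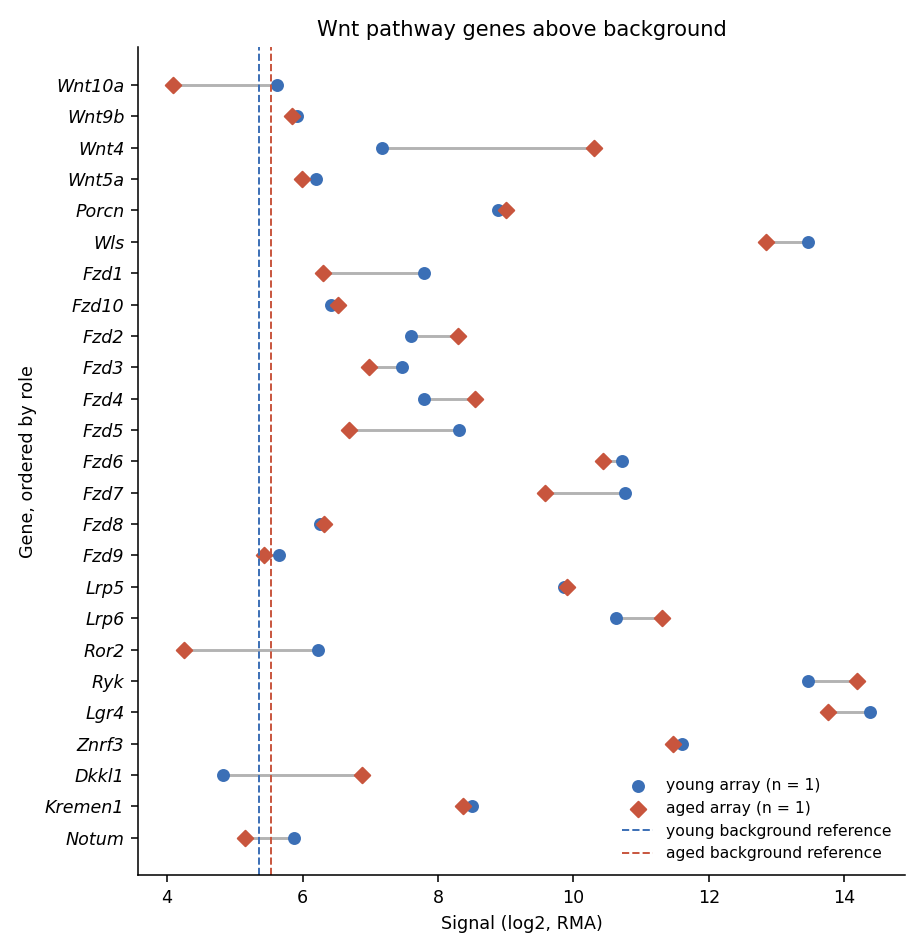
Signal (log2) of the 25 genes above the background reference on at least 1 array, with the young array as circles and the aged array as diamonds (1 array each, so no error bars), ordered by role from ligands at the top to antagonists at the bottom. Dashed lines mark the reference of each array (5.36 and 5.54). *Wnt4* and *Dkkl1* lie to the right on the aged array, and *Fzd1*, *Fzd5*, *Fzd7*, *Ror2* and *Wnt10a* to the left.

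The stretches before the start sites of *Wnt4* and of the 3 lower Frizzled genes are shown, because these are the genes at least 2-fold apart with a signal above the reference on both arrays. Each is the 250 bases upstream of the RefSeq start (build GRCm38.p6), 5′ to 3′ along the gene. Capitals mark a match to the TCF core motif, searched on both strands as CTTTG followed by 2 bases, each adenine or thymine.
Wnt4 (chr4:137277385-137277634, plus strand): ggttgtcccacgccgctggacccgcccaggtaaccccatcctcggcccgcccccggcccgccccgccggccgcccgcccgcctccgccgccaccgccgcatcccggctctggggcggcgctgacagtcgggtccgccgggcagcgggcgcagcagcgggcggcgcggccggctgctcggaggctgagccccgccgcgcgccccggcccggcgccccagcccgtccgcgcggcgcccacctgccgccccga
Fzd1 (chr5:4758217-4758466, minus strand): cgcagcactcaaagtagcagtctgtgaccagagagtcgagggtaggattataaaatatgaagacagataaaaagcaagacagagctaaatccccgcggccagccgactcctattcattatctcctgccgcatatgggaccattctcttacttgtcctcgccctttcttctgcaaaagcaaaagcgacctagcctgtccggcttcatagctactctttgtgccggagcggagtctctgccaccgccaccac
Fzd5 (chr1:64737751-64738000, minus strand): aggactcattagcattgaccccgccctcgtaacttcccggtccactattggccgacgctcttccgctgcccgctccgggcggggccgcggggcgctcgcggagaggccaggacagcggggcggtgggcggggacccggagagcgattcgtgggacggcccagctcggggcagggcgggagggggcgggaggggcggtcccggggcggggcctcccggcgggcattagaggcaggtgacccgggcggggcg
Fzd7 (chr1:59481897-59482146, plus strand): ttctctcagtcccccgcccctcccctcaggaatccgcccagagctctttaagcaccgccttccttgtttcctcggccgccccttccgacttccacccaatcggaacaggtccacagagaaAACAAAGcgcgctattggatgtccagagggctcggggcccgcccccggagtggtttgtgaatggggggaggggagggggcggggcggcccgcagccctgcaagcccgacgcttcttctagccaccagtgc
The motif occurred only before *Fzd7*, starting 130 bases from the start site, and in 14.8% of all 32851 such windows in the RefSeq table. Of the 57 genes, 37 had an entry there, and 4 of these held the motif in at least 1 window (*Dkk1*, *Fzd7*, *Wnt5b* and *Wnt11*). Some genes have several windows, and counted by window the motif was in 4 of 40 (10%). CpG dinucleotides numbered 44 before *Wnt4*, 12 before *Fzd1*, 32 before *Fzd5* and 17 before *Fzd7*, against a median of 6 over all windows and of 20.5 over the windows of the Wnt genes. The *Wnt4* window lay at percentile 99.5 of all windows, and those of *Wnt9a* (48), *Fzd9* (42) and *Wnt3a* (41), none of them counted as apart, were similarly rich in CpG. Neither DNA methylation nor factor binding was measured on these arrays.

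The co-receptors of the canonical branch were not lower alongside *Fzd1*, *Fzd5* and *Fzd7*. *Lrp5* was at 9.87 (young) and 9.90 (aged), a difference of 0.04. *Lrp6*, whose phosphorylated tail captures the scaffold protein Axin, was at 10.63 and 11.31, a difference of 0.68. *Lrp6* lies on chromosome 6, where the 553 genes above the reference had a median difference of 0.68, while the 18 chromosomes other than 6 and 12 had medians between −0.10 and 0.03. Set against its chromosome, *Lrp6* differed by −0.01. None of the 7 genes of the Wnt group with measured signals at least 2-fold apart lies on chromosome 6 or on chromosome 12, whose median was 0.60.

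Receptors of the β-catenin-independent branch differed from each other. *Ror2*, a receptor tyrosine kinase that binds Wnt5a, was at 6.23 (young) and 4.24 (aged). With the aged value under the reference, it was at least 1.62-fold lower, and whether it reached 2-fold cannot be told. *Ryk*, an atypical kinase receptor for Wnts, was at 13.47 and 14.18 (0.72, or 1.64-fold higher). *Ror1* was under the reference on both arrays, at 4.10 and 3.76.

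On the R-spondin axis, the receptor *Lgr4* and the ligase *Znrf3* were above background and the ligands were not. *Lgr4*, the widely expressed R-spondin receptor of epithelia, was at 14.39 (young) and 13.76 (aged), a difference of −0.63 (1.54-fold lower). *Lgr5*, the receptor that marks gland base stem cells, was at 9.84 and 8.85 (−0.98), just inside 2-fold, and *Lgr6* was under the reference on both arrays. *Znrf3*, the ligase that removes Frizzled from the membrane and is itself induced by Wnt signaling, was at 11.60 and 11.47 (−0.13). *Rspo1*, *Rspo2*, *Rspo3* and *Rspo4* lay under the reference on both arrays, *Rspo1*, the factor present in the medium, at 5.09 and 5.17.

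Most secreted antagonists could not be compared, because their signals were at background. *Dkk3*, a Dickkopf protein described as a Wnt inhibitor and as a tumor suppressor, was at 4.45 (young) and 4.82 (aged), under the reference in both. Its difference of 0.37 was within the spread of the background genes, so these arrays showed no *Dkk3* signal above background in either culture and give no direction for it. *Dkk1*, *Dkk2* and *Dkk4*, which block Lrp5 and Lrp6 to differing degrees, were also under the reference, with *Dkk1* at 3.07 and 3.26.

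*Dkkl1*, a Dickkopf-like gene known mainly from testis, was the Dickkopf gene above the reference. Its signal was 6.88 in the aged culture and 4.83 in the young culture, the latter under the reference, so that it was higher by 2.88-fold or more. *Kremen1*, whose product helps Dickkopf proteins to remove Lrp6, was at 8.50 and 8.36 (−0.13), and *Kremen2* was under the reference on both arrays. The decoy proteins that bind Wnt ligands (*Sfrp1*, *Sfrp2*, *Sfrp4*, *Sfrp5*, *Frzb* and *Wif1*) were all under it. *Sfrp1* had the widest gap of these, at 5.01 and 3.61. *Notum*, an enzyme that strips the lipid from Wnts and is known from Paneth cells of the aged intestine, was at 5.88 (young) and 5.15 (aged, under the reference), at least 1.27-fold lower.

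Among other extracellular regulators of the pathway, from a list of 31 names of which 30 were measured, the widest gaps were those of *Gpc3* and *Sulf1*, lower, and *Tspan12*, higher. Above the reference were 21, of which 3 were higher and 5 lower by 2-fold or more in the aged culture, with a median difference of −0.21. The share apart was 38.1%, beside 23.2% of all genes, and was not tested. Lower were *Gpc3*, *Gpc4*, *Sulf1*, *Sulf2* and *Ptk7*, of which the first 4 encode or trim heparan sulfate proteoglycans, the sugar-bearing surface proteins that hold Wnts near their receptors. The syndecan genes *Sdc1* and *Sdc4*, which encode proteoglycans too, were within 2-fold (−0.06 and −0.63). The glypican gene *Gpc3* was at 11.11 (young) and 3.72 (aged, at least 47.5-fold lower), and *Sulf1*, a sulfatase that trims heparan sulfate and frees Wnts, at 9.43 and 4.69 (at least 14.9-fold lower).

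The related sulfatase gene *Sulf2* was at 15.21 and 13.79 (2.67-fold lower). *Ptk7*, a co-receptor of planar polarity, was at 6.85 and 3.46 (at least 2.48-fold lower), and the glypican gene *Gpc4* was at 10.38 and 8.97 (2.66-fold lower). Higher was *Tspan12*, a membrane protein that boosts Norrin signaling through Fzd4, at 12.75 and 16.73, a difference of 3.98 (15.7-fold). *Tspan12* lies on chromosome 6, and its difference far exceeds the median of that chromosome. *Reck*, a cofactor for Wnt7 ligands, was at 6.18 and 7.67 (2.82-fold higher), and *Lypd6b* at 6.10 and 7.46 (2.58-fold higher).

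Inside the cell, most genes of the relay from receptor to nucleus were within 2-fold. Of 36 genes measured from a list of 39, 32 were above the reference, of which 1 was higher and 3 were lower by 2-fold or more and 28 lay within 2-fold (median −0.13). The share apart was 12.5%, beside 23.2% of all genes, and was not tested. *Pygo1*, a nuclear cofactor of β-catenin, was at 5.53 and 6.87 (2.53-fold higher), close to the reference on the young array. Lower were *Csnk1g1*, a casein kinase that phosphorylates Lrp6 (12.34 and 11.19), *Ctnnbip1*, an inhibitor of β-catenin binding to TCF (9.63 and 8.51), and the corepressor gene *Ctbp2* (11.82 and 10.79).

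Genes that Wnt signaling induces in gut epithelium did not share a direction. Of 18 measured, 14 were above the reference, with 2 higher and 3 lower by 2-fold or more in the aged culture (median −0.37). The share apart was 35.7%, beside 23.2% of all genes. Higher were *Tbx3*, which encodes a T-box repressor (5.29 and 7.03, at least 3.19-fold), and the AP-1 gene *Jun* (3.30-fold). Lower were the TNF receptor gene *Tnfrsf19* (15.7-fold), *Myc* (3.56-fold) and *Id2* (2.35-fold). *Axin2*, a widely used readout of canonical signaling, was at 8.81 and 9.55, a difference of 0.73.

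**Figure D3:**
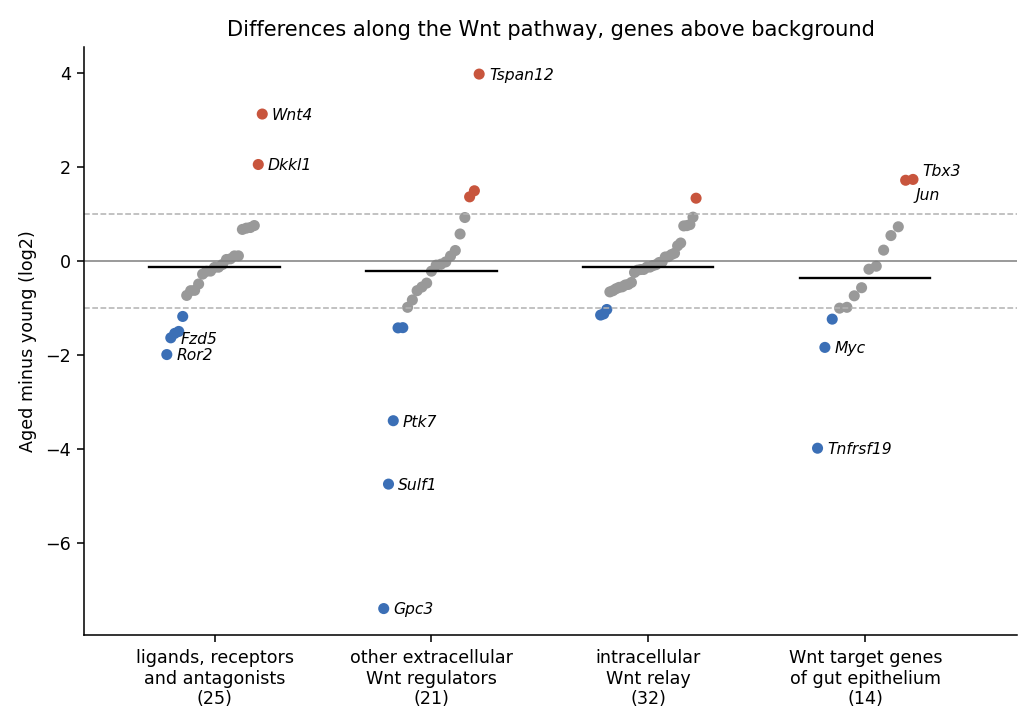
Aged minus young (log2) for the genes above the background reference in 4 lists along the pathway (1 point per gene, number of genes in parentheses; genes are sorted within each list, and *Lgr5* stands in 2 lists). Black bars are medians and dashed lines mark 2-fold. The medians lie between −0.37 and −0.13, and the widest gaps, *Gpc3* and *Sulf1* below and *Tspan12* above, are among the other extracellular regulators.

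The 7 genes with measured signals at least 2-fold apart kept that count and their direction when the arrays were rescaled by 4 methods or set against the median of their chromosome. Median centring and centring on the olfactory and vomeronasal receptor genes shift every gene alike, the latter by 0.12. Of the 7 genes, *Fzd7* was nearest to 2-fold, at −1.17, so neither shift could undo a call. The chromosome medians could move the 7 genes little, since those of their chromosomes lay between −0.10 and 0.03. *Wnt4* lay between 3.01 and 3.18 over these alternatives, *Fzd5* between −1.75 and −1.60, *Fzd1* between −1.61 and −1.46, and *Fzd7* between −1.30 and −1.15. 

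**Figure D4:**
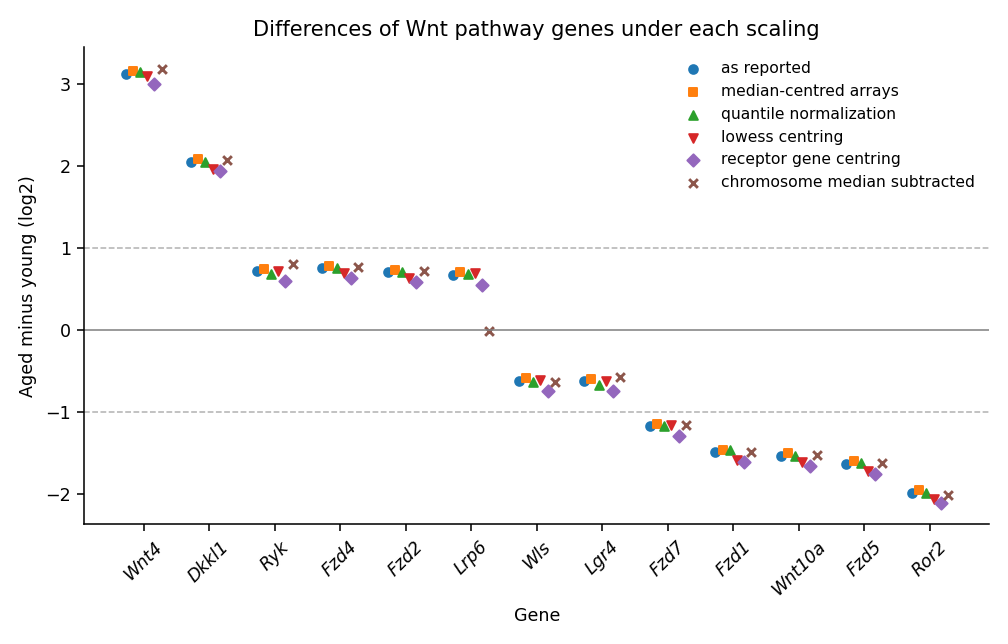
Aged minus young (log2) of 13 genes as deposited and under 5 alternatives (median centring, quantile normalization, lowess centring, centring on the olfactory and vomeronasal receptor genes, and subtraction of the chromosome median), with dashed lines at 2-fold. Each gene's points lie close together, except that *Lrp6* moves from 0.68 to −0.01 once the median of chromosome 6 is subtracted.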

How the data were processed

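Total RNA of gastric organoids from young and aged mice was measured on Clariom S mouse arrays, 1 array per group. The deposited values are log signals per probe set, made by the authors from the scans and taken here as log2. RMA and Affymetrix Power Tools are credited in the submitters' processing notes, with no version. Which logarithm was used is not given in the sources used here, and base 2 was assumed. Deposited log2 signals reached 19.9, and 225 on the young and 241 on the aged array were above 16, the most that a 16-bit scanner can give, so the scale had been stretched and fold sizes rest on it.

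From those values, 19572 of 22206 probe sets had exactly 1 gene symbol. Symbols were updated by gene identifier, and after averaging over probe sets (needed for 55 genes) 19505 genes were left. Chromosomes were read from probe set identifiers. The counts take in genes that differ by 2-fold or more with a signal above the background reference on at least 1 array. Nothing was tested, because a group is 1 array, and the number of arrays limits the precision. Every one of the 57 genes is accounted for, and of each other list up to 4 genes at least 2-fold apart in each direction are named, besides *Lgr5*, *Axin2* and *Tbx3*. *Fn1*, *Gpc4*, *Elavl4*, *Sdc1*, *Sdc4* and *Tff1* were added after their values were seen. The genes and lists were chosen with earlier results of these data known. Alternatives changed the scaling, the reference, the fold threshold, the probe set rule and the chromosome correction. The steps were tested on simulated arrays. Differences were placed there only in genes well above the reference, so the calling of differences near it was not covered. Python 3.11.15 with numpy 2.4.6, pandas 2.3.3, statsmodels 0.14.6 and matplotlib 3.10.9 was used.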

Additional observations from a re-analysis of the deposited data

How the results depend on the processing

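No paired analysis was possible because each group has 1 array. Nor could a replicate be left out. The 2 higher and 5 lower genes (2-fold or more by measured signals) were the same under the 4 rescalings and the chromosome correction. That correction could move them little, since their chromosomes had medians between −0.10 and 0.03. Of the rescalings, median centring and centring on the olfactory and vomeronasal receptor genes shift all genes alike. The latter shift was 0.12, and neither was large enough to undo a call. Choosing the brightest probe set could change none of the calls, since each of the 57 genes has 1 probe set. With the fold threshold at 1.5, the counts were 6 higher and 8 lower, and at 4-fold they were 2 higher (*Dkkl1* by its measured signal alone, since its bound is 2.88-fold) and 0 lower. With dim values set to the reference, a choice added after the data were seen, 3 were lower, since bounds replace measured values. The 99th percentile as reference left 21 genes above it, in place of 25, and *Wnt10a* was lost. *Sfrp1* was added as lower with the median as reference, where 40 genes were above it, or with no filter.

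The median difference of all 57 genes was −0.05. Centring on the olfactory and vomeronasal receptor genes moved it to −0.17, as it moved the median of all genes above the reference to −0.12. Over all measured genes of each list, those under the reference included, this centring moved the median of the other extracellular regulators from −0.07 to −0.19. The median of the intracellular relay moved from −0.11 to −0.23 and that of the target genes from −0.14 to −0.26. After this centring 5 target genes were at least 2-fold lower, in place of 3. Dim values set to the reference gave 0.18, because the references of the arrays differ and most of the 57 genes are under them. Of the 25 genes above the reference, 5 (*Fzd8*, *Fzd10*, *Lrp5*, *Lrp6* and *Porcn*) changed sign under at least 1 alternative, none of them 2-fold apart. Signal near background limits the ligands and antagonists, and no spread between replicates is known for bright genes.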

Other observations

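Several of these genes are neighbors in the genome, with no other protein-coding gene between them in the RefSeq annotation. There are 5 such pairs among the 57 genes, and in 1 of them both genes were above the background reference. That pair is *Kremen1* and *Znrf3* on chromosome 11, which differed by −0.13 each.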
